A study of Mus musculus with 6 samples.

Results

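Myeloid C-type lectin and CD300 receptors are surface proteins by which neutrophils and other phagocytes sense microbial sugars, dying cells and lipids. The 10 genes described here, Clec4d, Clec4e, Clec7a, Clec5a, Clec12a, Clec4a2, Clec2d, Cd300a, Cd300lf and Cd300ld, were taken by symbol from the 52636 genes of a table of transcript levels. Each symbol matched 1 row, and all 10 were among the 9775 genes whose level averaged 1 TPM or more and that were tested. TPM (transcripts scaled to one fixed total per library) is a level per length of transcript, so that levels of different genes can be compared within a library.

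RNA came from bone marrow neutrophils of C57BL/6N mice aged 10 weeks, 3 libraries labelled WT and 3 labelled LRP5-KO. By their genotype label, LRP5f/f/Lyz2Cre+, the mice of the second group had Lrp5 flanked by loxP sites, with Cre expressed from Lyz2, a gene expressed in neutrophils, monocytes and macrophages. The labels do not say whether the WT mice carried Cre or floxed alleles, nor whether each library came from a separate mouse, so the p-values measure the spread between these libraries. The study asked how neutrophils without LRP5, a receptor of the low-density lipoprotein receptor family known as a Wnt co-receptor, differ from WT cells.

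The labels were checked against the targeted transcript first. Lrp5 was 1.12, 1.31 and 1.42 TPM in WT replicates 1 to 3 and 1.68, 1.77 and 2.07 TPM in the libraries labelled LRP5-KO, so that it was not lower in the latter. This level covers the whole transcript and need not fall when exons are deleted, and every direction given here rests on the labels. Lyz2, the Cre site, was 24797 to 26791 TPM in WT and 13360 to 14027 TPM under the LRP5-KO label (log2 fold change -0.91, limma adjusted p = 0.00351). Total reads ranged from 249841492 to 340580330 per library, but as TPM does not keep counts, the depth behind a single value is unknown. Neutrophil transcripts were abundant in every library, with Ly6g from 920.2 to 1104 TPM and S100a8 from 106912 to 151287 TPM. WT replicate 3 stood apart from the other WT libraries. Reads assigned to ribosomal RNA were 3.30% in it, against 1.20% (replicate 1) and 1.30% (replicate 2), while the LRP5-KO label had 2.69% to 2.98% (exact permutation test of the groups, two-sided, p = 0.4). Across genes, the deviation of a library from the mean of all 6 correlated with transcript GC content at a Spearman rho of -0.61 (WT replicate 1), -0.43 (WT replicate 2) and 0.37 (WT replicate 3), and of 0.33 to 0.44 under the LRP5-KO label, values that describe the libraries, as genes are not independent replicates. The share of reads in introns was 8.46% ± 0.62 (SD, n = 3) in WT and 10.9% ± 0.31 (SD, n = 3) under the LRP5-KO label (exact permutation test, two-sided, p = 0.1, the least a design of this size can give).

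C-type lectin receptors of this group signal in opposed ways. Activating members, such as the receptors for fungal β-glucan and for mycobacterial glycolipid, carry a tyrosine motif or pair with the adaptors FcRγ and DAP12, which recruit the kinase SYK and, through CARD9, switch on NF-κB. Inhibitory members carry a cytoplasmic motif known as an ITIM, to which the phosphatase SHP-1 binds, and the CD300 family, whose ligands include phosphatidylserine and other lipids of cell membranes, holds receptors of both kinds.

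Apart from Clec5a, the genes form 3 groups on the chromosomes. On chromosome 6 of NCBIM37 (mm9, the build the methods name), Clec4a2 (123056446 to 123094017, plus strand), Clec4d (123212125 to 123225286, plus) and Clec4e (123231807 to 123239889, minus) lie together, Clec4d and Clec4e only 6.52 kb apart. Clec2d (129130633 to 129136552, plus), Clec12a (129292709 to 129315321, plus) and Clec7a (129411611 to 129422790, minus) follow 5890.74 kb beyond Clec4e, while Clec5a lies far from both at 40524897 to 40535804 on the minus strand. On chromosome 11, Cd300a (114751355 to 114765968, plus), Cd300ld (114843588 to 114851236, minus) and Cd300lf (114977528 to 114995306, minus) lie within one cluster. All are protein-coding genes with 4 to 7 exons in their longest transcript.

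Upstream sequence is shown for 2 pairs that are adjacent among the 10 genes, since they differed in level (Clec4d and Clec4e) or in direction (Cd300a and Cd300ld). Each line gives the 250 bases before the transcription start from RefSeq (GRCm38.p6), 5′ to 3′ on the strand of the gene. Capitals mark matches on either strand to GAGGAA, the core letters bound by PU.1, or to TTNNGNAA, the C/EBP consensus, where N is any base. Both factors are known for their part in neutrophil and monocyte development.
Clec4d (chr6:123261857-123262106, plus): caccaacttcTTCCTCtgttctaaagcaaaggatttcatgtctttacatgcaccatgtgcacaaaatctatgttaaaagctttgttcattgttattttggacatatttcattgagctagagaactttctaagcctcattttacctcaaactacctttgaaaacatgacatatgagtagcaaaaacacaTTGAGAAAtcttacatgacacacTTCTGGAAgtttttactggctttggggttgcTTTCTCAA
Clec4e (chr6:123289872-123290121, minus): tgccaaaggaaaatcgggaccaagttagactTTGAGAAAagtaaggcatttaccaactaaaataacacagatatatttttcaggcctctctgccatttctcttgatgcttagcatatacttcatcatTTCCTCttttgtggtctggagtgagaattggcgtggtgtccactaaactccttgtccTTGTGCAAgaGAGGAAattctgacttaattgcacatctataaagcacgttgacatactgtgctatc
Cd300a (chr11:114889791-114890040, plus): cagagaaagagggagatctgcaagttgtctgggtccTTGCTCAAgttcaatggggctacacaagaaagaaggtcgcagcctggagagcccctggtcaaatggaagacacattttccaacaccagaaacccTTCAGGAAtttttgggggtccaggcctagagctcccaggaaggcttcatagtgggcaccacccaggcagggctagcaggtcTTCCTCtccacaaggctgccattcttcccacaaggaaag
Cd300ld (chr11:114989887-114990136, minus): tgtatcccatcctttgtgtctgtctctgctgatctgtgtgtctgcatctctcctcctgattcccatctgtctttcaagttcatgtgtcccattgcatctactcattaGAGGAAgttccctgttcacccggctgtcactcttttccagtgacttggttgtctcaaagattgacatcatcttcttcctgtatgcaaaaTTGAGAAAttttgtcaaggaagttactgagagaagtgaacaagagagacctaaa
The nearest PU.1 match lay 240 bases before the start in Clec4d, 56 in Clec4e, 39 in Cd300a and 143 in Cd300ld, and Clec4e had a second at 123. C/EBP matches lay 8, 39 and 62 bases before the start of Clec4d, and 66 and 219 before that of Clec4e. In Cd300a they lay 120 and 214 bases before the start, and Cd300ld had 1 at 54. All 10 receptor genes had an entry, and 8 held GAGGAA, against 23.3% of 32851 mouse promoter windows of the same length, while TTNNGNAA was in 9, against 36.8%. The 2 without GAGGAA were Clec4a2 and Clec2d, and the 1 without TTNNGNAA was Clec7a. No match to one motif overlapped a match to the other. In these shares receptors were counted by gene and mouse promoters by window, with no matching for GC content. The GC content of the receptor windows ran from 35.2% to 53.6%. A match is a run of letters, and binding was not measured.

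Some of these receptors have close relatives, and reads from stretches they share may have been assigned to either gene when TPM was made. The read summary gives reads of 94 bases, while the methods give single-end reads of 75. All windows of 94 bases in the longest GENCODE M1 transcript were looked up in protein-coding transcripts only. For 6 receptors, none was found in such a transcript of another gene. The others were Clec4a2 (2.93% of windows shared with Clec4a4), Cd300lf (2.29%, with Cd300ld), Cd300ld (1.61%, with Cd300lf) and Cd300a (1.03%, with Cd300c2). With windows of 75 bases, added after the data had been seen, the same 6 shared none, and the shares were 4.03% for Clec4a2 (Clec4b1 also), 3.31% for Cd300lf, 2.33% for Cd300ld and 1.44% for Cd300a. The longest identical runs, all coding, are given for the CD300 pairs because their levels are set side by side below.
Cd300lf and Cd300ld, 134 bases: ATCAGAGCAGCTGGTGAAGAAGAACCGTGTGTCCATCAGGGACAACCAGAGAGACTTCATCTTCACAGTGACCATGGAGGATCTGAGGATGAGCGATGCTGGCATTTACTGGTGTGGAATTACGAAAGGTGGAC
Cd300a and Cd300c2, 140 bases: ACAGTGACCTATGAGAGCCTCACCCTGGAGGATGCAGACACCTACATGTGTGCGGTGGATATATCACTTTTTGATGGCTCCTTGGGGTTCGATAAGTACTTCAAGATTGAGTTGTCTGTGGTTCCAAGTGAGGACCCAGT
These values for Clec4a2 and the 3 CD300 genes are therefore less certain than those of the other receptors, by a small share of their length.

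All 10 receptors were expressed in every library. Together they made up 0.299% to 0.355% of all TPM in WT and 0.275% to 0.296% under the LRP5-KO label. Clec7a ranked 93rd by mean level among all genes listed and Clec4d 133rd, and the lowest of the 10, Clec2d, ranked 2108th. In WT the order by mean was Clec7a, Clec4d, Cd300lf, Cd300ld, Clec5a, Clec12a, Clec4a2, Clec4e, Cd300a and Clec2d. Neighbours in this order that overlapped between libraries were Clec7a with Clec4d, Cd300ld with Clec5a and Clec5a with Clec12a. The order under the LRP5-KO label was the same except that Clec12a stood before Cd300ld and Clec5a, and here Clec12a overlapped Cd300ld, and Cd300ld overlapped Clec5a. The plot of receptor levels shows each library.

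**Figure D1:**
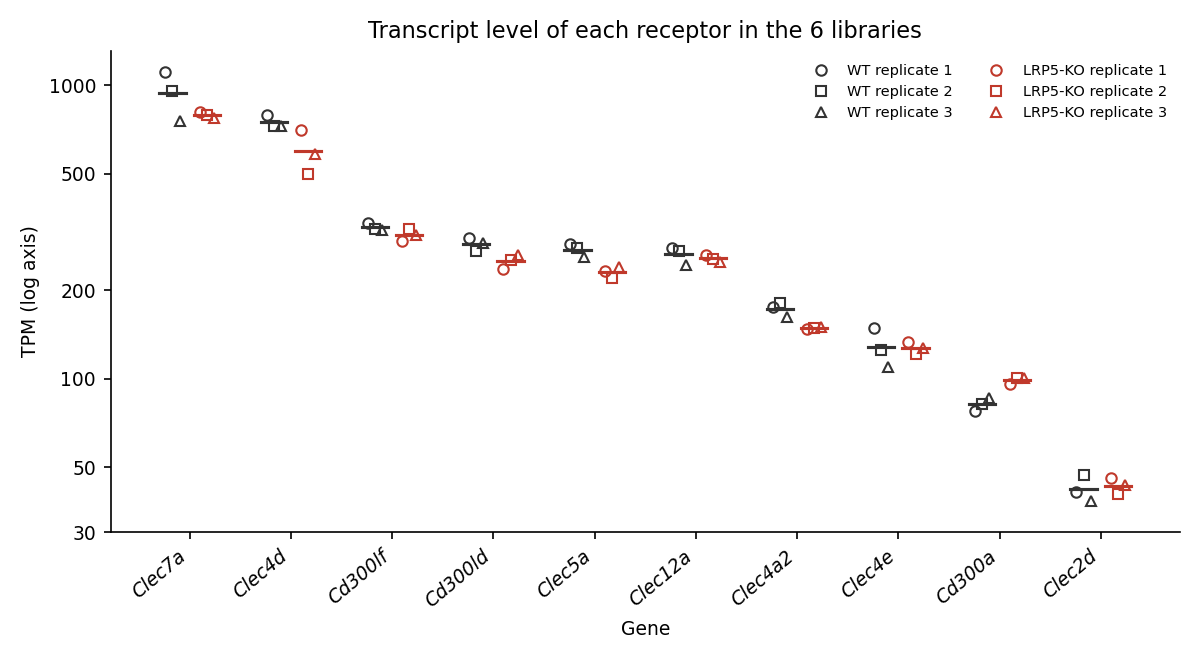
TPM on a log axis for each receptor gene, in order of its WT mean, with 1 point per library (black, labelled WT; red, labelled LRP5-KO; circle, square and triangle for replicates 1 to 3) and a line at each group mean. Levels run from 38.3 TPM for Clec2d to 1107 TPM for Clec7a, and Cd300ld, Clec5a and Clec12a lie close together, with WT means of 287, 275 and 265 TPM.

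Between the groups, limma called 0 of the 10 receptors at an adjusted p under 0.05, where 0.532% of all 9775 genes were called. At an unadjusted p under 0.05 there were 5, namely Cd300a, which was higher, and Clec4d, Clec5a, Clec4a2 and Cd300ld, which were lower, where all genes gave 23.5% (14.4% higher and 9.12% lower). In the same 5 genes the groups did not overlap, where 29.7% of all genes had no overlap. Among all genes 17.4% had every library labelled LRP5-KO above every WT library and 12.3% had every one below. A negative log2 fold change was found for 8 of 10 receptors and for 41.2% of all genes, with a median of -0.14 over the receptors and 0.04 over all genes. All fold changes here are on the scale of log2(TPM + 1).

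**Figure D2:**
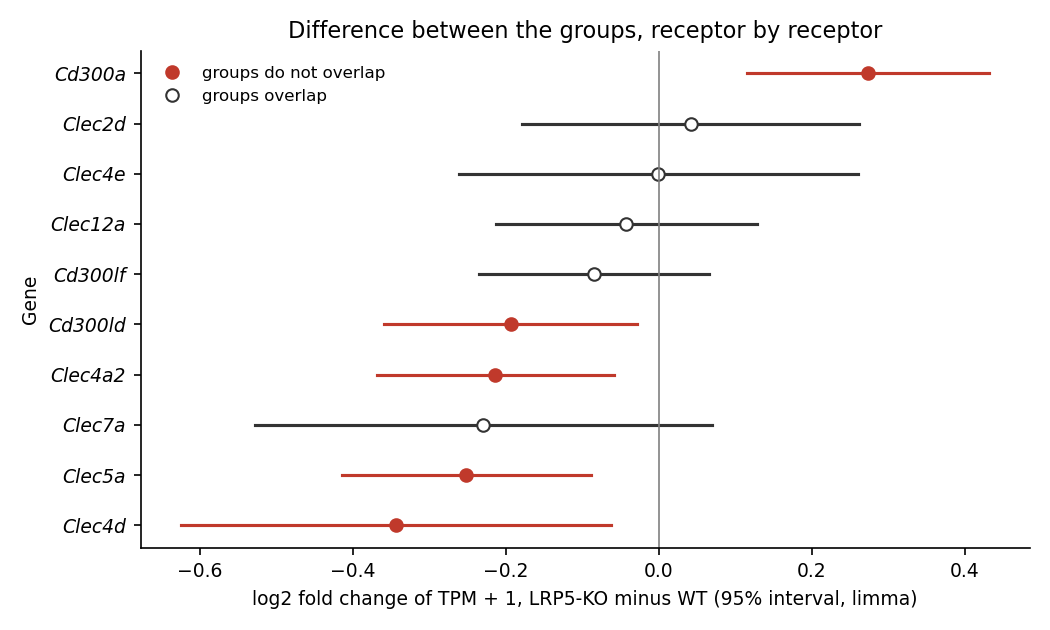
Log2 fold change of TPM + 1 for each receptor, libraries labelled LRP5-KO minus WT, with its 95% interval from limma, 3 libraries per group. Red marks genes whose groups do not overlap (Cd300a higher, Clec4d, Clec5a, Clec4a2 and Cd300ld lower). No gene had an adjusted p under 0.05.

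Of the activating receptors, Clec7a encodes Dectin-1, the receptor for fungal β-glucan, which signals to SYK through its own tyrosine motif. It was the most abundant of the 10, at 1107, 952 and 757 TPM in WT replicates 1 to 3 and 810.2, 790.4 and 773 TPM in the libraries labelled LRP5-KO. WT replicate 3 was below all libraries of the other label, and WT replicates 1 and 2 were above them. The mean was 939 ± 175 TPM in WT and 791 ± 18.5 TPM under the LRP5-KO label (SD, n = 3 each), a log2 fold change of -0.23 (standard error 0.13, 95% interval -0.53 to 0.07, limma adjusted p = 0.317). Without WT replicate 3, it was -0.38 with an adjusted p of 0.0234 (limma), and with WT replicate 3 as the one WT library it was 0.06.

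Clec4d and Clec4e encode MCL and Mincle, which form a receptor for the mycobacterial glycolipid trehalose dimycolate and signal through FcRγ. Clec4d was 790.1, 728 and 727 TPM in WT replicates 1 to 3 and 703, 499 and 583 TPM in the libraries labelled LRP5-KO. Every library of the second group was lower, and LRP5-KO replicate 2 was the lowest. At 749 ± 36.0 and 595 ± 103 TPM (SD, n = 3 each) the log2 fold change was -0.34, the largest in size among the 10 (standard error 0.12, 95% interval -0.62 to -0.06, limma adjusted p = 0.161). It ranged from -0.47 without LRP5-KO replicate 1 to -0.22 without LRP5-KO replicate 2 among fits that left out a library, and was -0.17 after the removal of GC and length trends.

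For Clec4e the levels were 149, 125 and 110.0 TPM in WT and 133, 122 and 127 TPM under the LRP5-KO label. The WT libraries enclosed the others, with WT replicate 1 the highest and WT replicate 3 the lowest of all 6. The log2 fold change was -0.00088 (standard error 0.11, 95% interval -0.26 to 0.26, limma adjusted p = 0.998). With GC and length trends removed it became 0.22 (limma adjusted p = 0.0546). Clec4d transcripts thus outnumbered those of Clec4e 5.30, 5.80 and 6.61 times in WT and 5.29, 4.10 and 4.59 times under the LRP5-KO label. This ratio was taken up after the values had been seen. Its groups did not overlap, though LRP5-KO replicate 1 came close to WT replicate 1 (exact permutation test, two-sided, p = 0.1).

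Clec5a encodes MDL-1, a receptor that pairs with DAP12 and DAP10. It was 288, 278 and 259 TPM in WT and 232, 219.8 and 241 TPM in the libraries labelled LRP5-KO, all of which were lower. The means of 275 ± 14.5 and 231 ± 10.6 TPM (SD, n = 3 each) gave a log2 fold change of -0.25 (standard error 0.070, 95% interval -0.41 to -0.09, limma adjusted p = 0.121). Its adjusted p fell to 0.0264 in limma without WT replicate 3, while the difference shrank to -0.03 once the trends with GC content and length were taken out.

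Cd300ld encodes a CD300 receptor that pairs with FcRγ. Its levels of 301, 272 and 289 TPM in WT and 237, 253 and 263 TPM under the LRP5-KO label did not overlap. The log2 fold change was -0.19 (standard error 0.071, 95% interval -0.36 to -0.03, limma adjusted p = 0.169). Across the 18 other treatments of the data it stayed between -0.24 and -0.15, with no adjusted p below 0.106 in limma.

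Among the inhibitory receptors, Cd300a, whose product binds phosphatidylserine and phosphatidylethanolamine on dying cells, was the only one of the 10 with every library labelled LRP5-KO above WT. It was 77.4, 82.1 and 86.0 TPM in WT and 96.2, 100.5 and 100.5 TPM under the LRP5-KO label. WT replicate 3 was the highest WT library and still below the other group. At 81.8 ± 4.28 and 99.1 ± 2.50 TPM (SD, n = 3 each), 21.0% higher, it gave the smallest p of the 10 (log2 fold change 0.27, standard error 0.068, 95% interval 0.12 to 0.43, limma adjusted p = 0.103). It was called in 2 of the 18 other fits, without WT replicate 3 (0.31, limma adjusted p = 0.0226) and after correction for GC content and length (0.24, limma adjusted p = 0.0384).

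Clec4a2 encodes DCIR, a C-type lectin with an ITIM. It was 176, 181 and 162 TPM in WT and 147, 149 and 150.2 TPM in the other group, without overlap and with little spread in the latter. The log2 fold change was -0.21 (standard error 0.066, 95% interval -0.37 to -0.06, limma adjusted p = 0.139). Leaving out WT replicate 3 gave -0.26 (limma adjusted p = 0.0249), and removing GC and length trends turned it to 0.11 (limma adjusted p = 0.574). Its transcript, at 36.8% GC, had the lowest GC content of the 10.

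Clec12a encodes MICL, an inhibitory receptor for uric acid crystals released by dead cells. Its levels were 279, 273 and 243 TPM in WT and 265, 256 and 249.7 TPM under the LRP5-KO label, which lay between those of WT. The log2 fold change was -0.04 (95% interval -0.21 to 0.13, limma adjusted p = 0.756). Cd300lf, which encodes an ITIM-bearing receptor for ceramide and phosphatidylserine, was the most abundant CD300 gene of the 3, at 338, 323 and 321 TPM in WT and 293, 324 and 309.6 TPM in the libraries labelled LRP5-KO. LRP5-KO replicate 2 was level with WT replicates 2 and 3, and the log2 fold change was -0.08 (95% interval -0.23 to 0.07, limma adjusted p = 0.455).

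Clec2d encodes a C-type lectin-like ligand of NKR-P1 receptors of natural killer cells. It was 41.0, 47.0 and 38.3 TPM in WT and 45.8, 40.5 and 43.5 TPM in the other group. Here too the WT libraries enclosed the others, with a log2 fold change of 0.04 (95% interval -0.18 to 0.26, limma adjusted p = 0.818). Klrb1b, the gene of a receptor that it engages, was at most 0.021 TPM in every library.

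The values depended on WT replicate 3 and on the joint removal of trends with GC content and transcript length. In 7 of 10 receptors WT replicate 3 was the WT library nearest to the mean of the libraries labelled LRP5-KO. Without it, 4 receptors were called by limma at an adjusted p under 0.05 (Cd300a higher, Clec7a, Clec5a and Clec4a2 lower), where 19.6% of all genes were. With WT replicate 3 as the one WT library, the spread came from the libraries labelled LRP5-KO alone, and the lone library was assumed to vary like them. In that fit 0 receptors were called, where 0.0614% of all genes were. By sign 5 were lower and 5 higher, and their median log2 fold change was 0.0034. The lectin transcripts were poor in GC, from 36.8% in Clec4a2 to 44.9% in Clec2d, and the CD300 transcripts ranged from 46.6% to 50.9%, where the median of genes tested was 49.98%. Once trends with GC content and transcript length had been removed from each library, 5 receptors were lower and 5 higher, with a median of 0.03, and Cd300a alone was called, where 4.9% of all genes were. Clec4d, Clec5a, Cd300a, Cd300lf and Cd300ld kept their direction in all 18 other fits, and the other 5 changed it in at least 1.

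**Figure D3:**
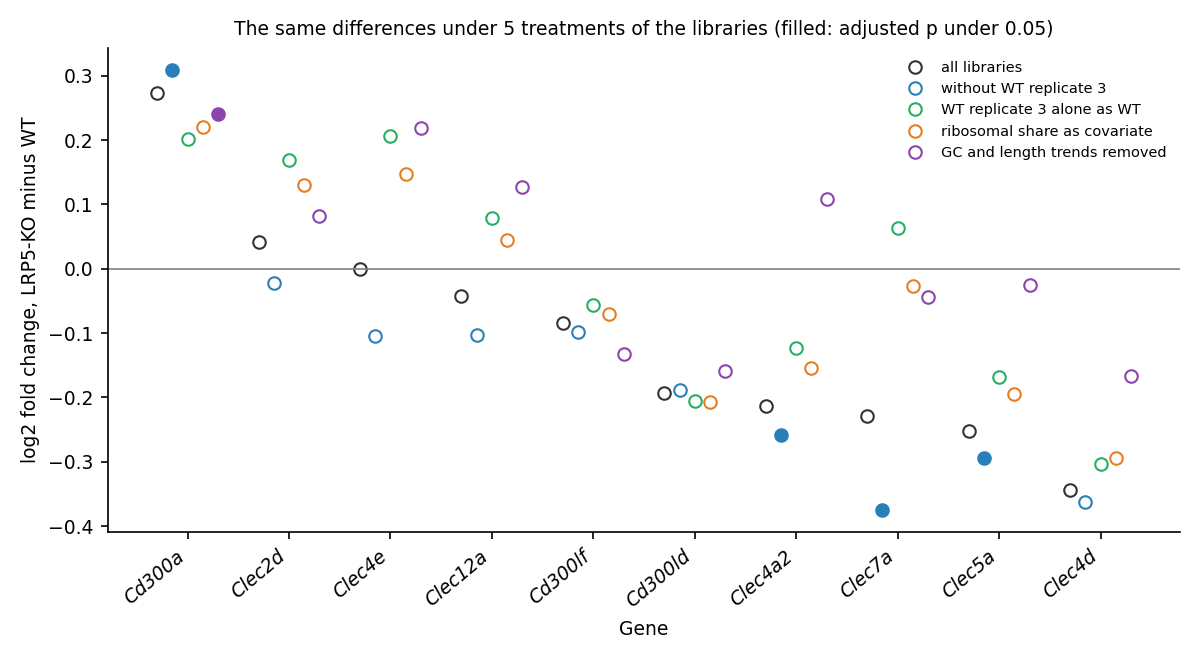
Log2 fold change of each receptor, libraries labelled LRP5-KO minus WT, under 5 treatments of the libraries (colours), with filled points where limma's adjusted p was under 0.05. Cd300a stays above 0 and Clec4d, Clec5a, Cd300lf and Cd300ld below it throughout, while Clec2d, Clec4e, Clec12a, Clec4a2 and Clec7a lie on both sides of 0.

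Markers of other cells were looked at beside these values, because monocytes and dendritic cells also express most of these receptors. In bulk RNA, a smaller share of one cell type and less transcript per cell cannot be told apart. The 15 monocyte and macrophage markers summed to 643 to 809 TPM in WT and 718 to 781 TPM under the LRP5-KO label, mostly Ly6c2, which immature neutrophils also express. None was at 0. The next highest after Ly6c2 were Cd68 (52.2 to 62.9 TPM over all libraries), Csf1r (31.4 to 42.5 TPM), Treml4 (12.3 to 15.8 TPM) and Adgre1 (10.3 to 15.6 TPM), and among the lowest were Ccr2 (0.86 to 1.21 TPM) and Cx3cr1 (0.19 to 0.35 TPM). Of 12 tested, 4 had groups without overlap, all higher in the libraries labelled LRP5-KO (Adgre1, C1qa, C1qb and Treml4). Among all genes, 17.4% were higher and 12.3% lower without overlap. Of the 12, 0 were called in limma, where 0.532% of all genes were. Sums for the 8 dendritic cell markers were 7.18 to 8.91 and 8.55 to 9.40 TPM, for the 9 B cell markers 121 to 133 and 120.1 to 135 TPM, for the 9 T and NK cell markers 11.6 to 13.7 and 16.0 to 17.7 TPM, for the 9 erythroid markers 48.6 to 57.8 and 43.0 to 54.7 TPM and for the 5 megakaryocyte markers 3.74 to 5.38 and 5.75 to 6.65 TPM. Most of the T and NK cell sum was Cd3d, at 9.33 to 10.6 TPM in WT and 13.4 to 14.5 TPM under the LRP5-KO label, while Cd3e was at most 0.18 TPM and Cd3g at most 0.91 TPM, both with overlap. Sums of the 8 eosinophil, basophil and mast cell markers were 10.97 to 13.5 and 14.3 to 15.4 TPM. Prg2 (eosinophil major basic protein), near the filter of 1 TPM in WT, was called as higher, at 1.02 ± 0.16 in WT and 2.79 ± 0.41 TPM (SD, n = 3 each, limma adjusted p = 0.0341). Siglecf, the most abundant of the 8, overlapped, at 8.27 ± 0.83 and 8.47 ± 0.37 TPM (SD, n = 3 each, limma adjusted p = 0.848). Mcpt8 overlapped too, at means of 1.81 and 1.69 TPM. Epx and Ccr3 averaged under 1 TPM and were higher without overlap. Of genes of neutrophil maturation, 9 of 15 immature genes were higher and 5 of 15 mature genes lower without overlap (medians 0.23 and -0.15), where 17.4% of all genes were higher and 12.3% lower without overlap. None of either list was called in limma, and at an unadjusted p under 0.05 there were 8 higher immature and 6 lower mature genes, where all genes gave 14.4% higher and 9.12% lower. The part of these cells and stages in the receptor values was not tested.

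Other C-type lectin and CD300 genes, with Clec16a by its symbol only, were measured as a list of 43. Of these, 42 were in the table and 11 passed the filter. No call was made among the 11 in limma (0.532% of all genes), with 4 higher and 3 lower at an unadjusted p under 0.05 (14.4% and 9.12% of all genes) and a median log2 fold change of 0.05. Clec16a, whose product is not a surface receptor, was among the 4 higher (log2 fold change 0.20, limma adjusted p = 0.190). Clec4n, which encodes Dectin-2, a receptor for fungal mannan that pairs with FcRγ, lies between Clec4a2 and Clec4d. It was 23.5, 23.8 and 24.2 TPM in WT and 32.2, 29.9 and 35.0 TPM under the LRP5-KO label, higher in every library of the latter, while Clec4a2 and Clec4d were lower in every one. Its log2 fold change was 0.42 (standard error 0.078, limma adjusted p = 0.0648), and it was called in 3 of the 18 other fits. Cd300c2, which shares sequence with Cd300a, was likewise higher throughout, at 52.6 to 59.8 TPM in WT and 70.05 to 73.1 TPM under the LRP5-KO label (log2 fold change 0.32, limma adjusted p = 0.0907). Olr1, which encodes LOX-1, a lectin-like receptor for oxidized lipoprotein, was 37.2 to 45.5 TPM in WT and 33.01 to 35.9 TPM in the other group (log2 fold change -0.27, limma adjusted p = 0.149).

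Of the signalling partners, both adaptors were more abundant than any of the 10 receptors. Tyrobp, which encodes DAP12, was 3937, 4172 and 4319 TPM in WT and 4764, 4759 and 4503 TPM in the libraries labelled LRP5-KO, higher in all 3 (log2 fold change 0.18, limma adjusted p = 0.155). Correction for GC content and length brought its difference to 0.0065. Fcer1g, the gene of FcRγ, was 1699, 1253 and 1477 TPM in WT and 1254, 1330.2 and 1317 TPM in the other group, with overlap (log2 fold change -0.17, limma adjusted p = 0.363). Syk was 247 ± 26.4 and 259 ± 11.7 TPM (SD, n = 3 each, limma adjusted p = 0.654) and Card9 69.9 ± 4.85 and 77.1 ± 5.92 TPM (SD, n = 3 each, limma adjusted p = 0.357). Ptpn6, which encodes SHP-1, was 380.0 to 422 TPM in WT and 354 to 359 TPM under the LRP5-KO label, without overlap (log2 fold change -0.17, limma adjusted p = 0.180). With GC and length trends removed Ptpn6 was called at -0.26 (limma adjusted p = 0.0407). Lyn, a Src family kinase that phosphorylates ITIMs, had the smallest p of the list, at 201 to 217 TPM in WT and 169 to 189 TPM in the other group (log2 fold change -0.24, limma adjusted p = 0.129), and Ikbkg, a subunit of the IκB kinase, had groups that overlapped (log2 fold change -0.51, limma adjusted p = 0.178). Of the 27 genes tested in this list of 30, 0 were called in limma, where 0.532% of all genes were. At an unadjusted p under 0.05, 2 were higher and 4 lower, where all genes gave 14.4% higher and 9.12% lower. The median of the list was -0.02.

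Of 25 genes that these receptors and other NF-κB-activating receptors are known to induce, 16 were tested. Cxcl2 alone was called, where 0.532% of all genes were. Cxcl2, a chemokine that attracts neutrophils, was 348, 348 and 319.6 TPM in WT and 248, 229.98 and 247 TPM in the libraries labelled LRP5-KO. Its log2 fold change was -0.48 (standard error 0.067, limma adjusted p = 0.0371) and was called in 7 of the 18 other fits, among them those without WT replicate 3 and with GC and length trends removed, with an adjusted p up to 0.178 in the rest. Leaving out any single library other than WT replicate 3 lost the call of Cxcl2. The inducible genes Socs3 (log2 fold change 0.45) and Tnfaip3 (0.36), which encode negative regulators of cytokine and NF-κB signalling, were higher in every library labelled LRP5-KO without being called (limma adjusted p = 0.0892 and 0.104). Il1b, at 3067 to 3356 TPM in WT and 3161 to 3363 TPM in the other group, and Tnf, at 34.3 to 39.2 and 35.0 to 37.9 TPM, overlapped. Over the list 3 genes were higher and 2 lower at an unadjusted p under 0.05, where all genes gave 14.4% higher and 9.12% lower. The median of the list was -0.0042.

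**Figure D4:**
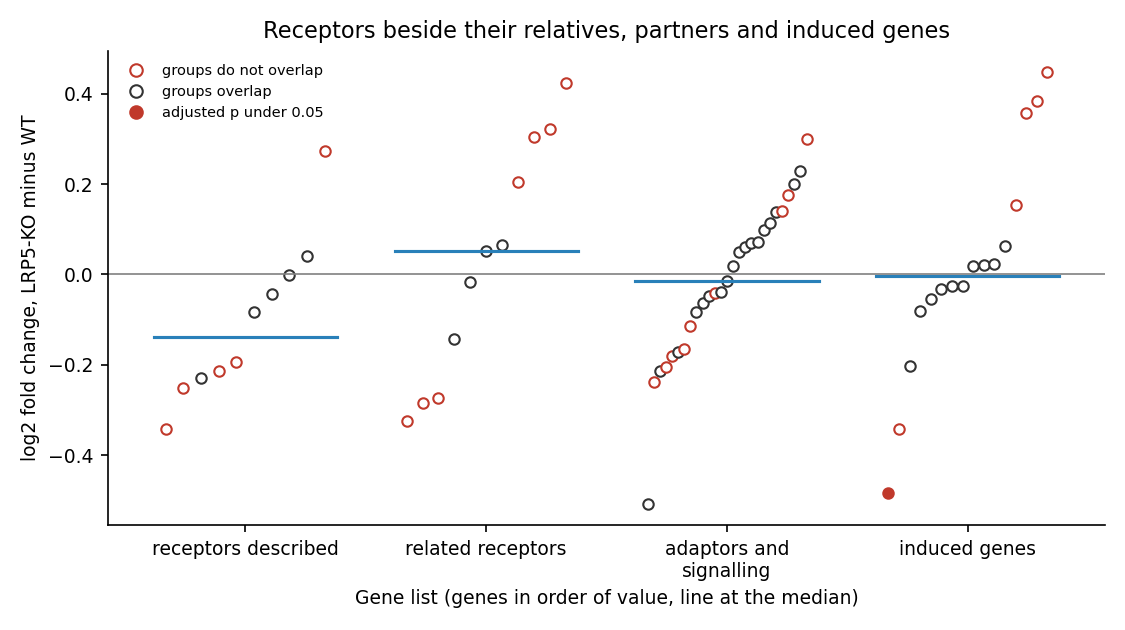
Log2 fold change of each gene tested, libraries labelled LRP5-KO minus WT, in 4 lists, with a blue line at each median. The lists are the 10 receptors, 11 genes listed as related receptors, 27 adaptor and signalling genes and 16 induced genes. Clec16a, among the 11, does not encode a surface receptor. Red points mark genes whose groups do not overlap, and the 1 filled point, with an adjusted p under 0.05 in limma, is Cxcl2.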

How the data were processed

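The 6 RNA libraries were from bone marrow neutrophils, 3 for each label. Cells were isolated on a Percoll gradient and libraries made with an mRNA kit according to the labels, whereas the methods describe sorted CD11b+ Ly6G+ cells and a kit for total RNA. The authors aligned reads to mm9, name DESeq2 in their pipeline, and deposited TPM, which is scaled for length and library total; the tool that made TPM is not given in the sources used here. Their deposited read summary holds read counts, shares in percent, a coverage ratio between transcript ends, a coverage variation score and sizes in bases.

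The test was limma 3.58.1 (R 4.3.3) with a mean-variance trend and no covariates, run on log2(TPM + 1) of the 9775 genes averaging 1 TPM or more. P-values were adjusted by Benjamini-Hochberg over these genes, and a gene was called at an adjusted p under 0.05. No count model was run, because TPM values are not counts. Exact permutation tests used scipy 1.17.1. GC content and length came from the longest GENCODE M1 transcript (89.7% of genes tested), and their trends were removed per library with splines of 4 degrees of freedom. The 10 receptors, the gene lists and the 18 alternatives were chosen with earlier results of these data known. Genes named outside the receptors were 5 signalling partners, Lrp5, Lyz2 and, from each list, those called and the 3 of smallest p. The markers, Hcst, Il1b, Tnf and Klrb1b were singled out after their values were seen.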

Additional observations from a re-analysis of the deposited data

How the results depend on the processing

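Of the 10 receptors, 0 were called, and between 0 and 4 in fits that left out 1 library, the 4 without WT replicate 3. With GC and length trends removed 1 was called. The count was 0 in the other 11 alternatives, which comprised a pseudocount of 0.1, no filter or a mean of 5 TPM, 3 other scalings, 2 variance models, the replicate block, the ribosomal share as a covariate and WT replicate 3 as the one WT library. The last fit takes its spread from the libraries labelled LRP5-KO alone and calls few genes at all, so its 0 says nothing about stability. For related receptors, with 0 called, the count was 1 when TPM was rescaled without the most abundant genes, 1 with the trends removed and 0 to 5 with a library left out. For signalling genes, with 0 called, it was 3 with the trends removed and 0 to 2 with a library left out. For induced genes, with 1 called, it was 2 with the trends removed. With a library left out it was 5 without WT replicate 3 and 0 without any other. It was also 0 without a filter, with quantile normalization, without a mean-variance trend, with the ribosomal covariate and with the replicate block. Clec4e turned positive under quantile normalization (0.028), rescaling (0.026), the ribosomal covariate (0.15), trend removal (0.22) and against WT replicate 3 alone (0.21), and ran from -0.10 (without WT replicate 3) to 0.11 (without WT replicate 1) with a library left out. Clec12a was 0.044 with the covariate, 0.13 with trends removed and 0.080 against WT replicate 3 alone. Against that library Clec7a was 0.063, and with trends removed Clec4a2 was 0.11. Clec2d was -0.0017 under median-ratio scaling and ran from -0.022 (without WT replicate 3) to 0.12 (without WT replicate 2) with a library left out. The cause of these turns was not tested. In all genes, the 52 called (26 higher, 26 lower) became 2 to 1920 with a library left out, 3 without a filter, 29 at a mean of 5 TPM, 96 (69 higher) after rescaling, 6 with the covariate, 6 against WT replicate 3 alone, 4 with the replicate block and 430 (157 higher) with trends removed. Deviations of same-numbered libraries from their group means correlated at 0.23, -0.0075 and 0.13. WT replicates 1 and 3 correlated best with the LRP5-KO library of their own number, and WT replicate 2 did not. So few correlations cannot decide whether same-numbered libraries were paired. The ribosomal share differed by 0.57 to 1.62 and the intronic share by 2.13 to 2.74 percentage points with a library left out. TPM gives no depth for single values.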
